A study of Mus musculus with 6 samples.

Results

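Pyroptosis and necroptosis are forms of lytic cell death run by small sets of proteins, and 10 of their genes are described here: Casp1, Casp4, Casp8, Gsdmd, Pycard, Il18, Ripk1, Ripk3, Mlkl and Zbp1. They were chosen by name, with earlier results of these data known, as rows of a table of 55487 genes. All 10 were found in it by Ensembl identifier and GRCm38 symbol. The RNA came from the 4T-1 line, which derives from a mouse mammary carcinoma, in 2 untreated groups. One group was labelled wild type (n = 3 libraries) and the other Lyplal1 knockout (n = 3). The sample names carry NC for the first group and sg2 for the second. Lyplal1 encodes a thioesterase-like protein, which the study's title ties to removal of palmitate from the DNA sensor cGAS and to the response to immunotherapy. The labels do not say whether the knockout cells are 1 clone or a pool, or whether the libraries of a group came from separate cultures, so p-values here measure the spread between these libraries, which may be technical.

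In pyroptosis, a sensor gathers the adaptor ASC (Pycard), which activates caspase-1 (Casp1). Caspase-1 matures the cytokine interleukin-18 (Il18) and cuts gasdermin D (Gsdmd), whose free end opens pores in the plasma membrane. Mouse Casp4 encodes caspase-11, which binds bacterial lipopolysaccharide in the cytosol and cuts gasdermin D without ASC. In necroptosis, the kinases RIPK1 and RIPK3 meet through a shared motif, RIPK3 phosphorylates MLKL, and MLKL breaks the plasma membrane. ZBP1 senses Z-form nucleic acid and binds RIPK3 through the same kind of motif, while caspase-8 (Casp8) cuts the RIP kinases and holds necroptosis back. Several of these genes are interferon-inducible, and RIPK3 is often silenced in cultured cancer lines.

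Libraries held 16731209 to 17108975 counts each, and the leading principal component, with 95.1% of the variance, separated the groups. Lyplal1 RNA was still present in the knockout libraries, at 54, 48 and 58 counts against 76, 73 and 68 in wild type (log2 fold change -0.28 ± 0.15, edgeR adjusted p = 0.0886), so its level does not check the genotype. Libraries of one group differed from each other beyond sampling noise (chi-square per gene 1.41 to 3.57), most so in the 2 pairs that include knockout replicate 3. All 7 epithelial markers listed were detected, with a summed level of 3910 to 4020 CPM (counts scaled to library size) in wild type against 3070 to 3080 CPM for knockout. The sum hides opposite moves: Krt18 had 22846 to 23858 counts in wild type and 7606 to 7883 in knockout, while Krt7 had 13961 to 14691 and 21511 to 21676. Krt7 was the only one clearly higher in knockout. Epcam had 1600, 1626 and 1568 counts in wild type and 474, 455 and 498 in knockout. Krt19 had 7311, 7111 and 7390 against 1739, 1637 and 1669. Krt8 and Cdh1 were also lower in knockout, and Krt14 was low in both groups, at 24 to 32 counts. Of 10 leukocyte markers 9 had a count, and their sum ran from 9.82 to 11.4 CPM over the wild-type libraries and from 10.6 to 29.8 CPM over the knockout ones. Knockout replicate 3 gave the high end, with 474 leukocyte marker counts against 170 and 197 in the other knockout libraries. Most wild-type counts were from Cd14, at 168, 184 and 192 against 134, 142 and 155 in knockout. Lyz2, the lysozyme gene of myeloid cells, had 1, 0 and 0 counts in wild type and 28, 45 and 263 in knockout, so it was higher in all 3 knockout libraries. Tyrobp and Itgam, also myeloid, had no wild-type count and 0, 1 and 16, and 0, 1 and 3, in knockout. Ptprc went the other way, with 3, 4 and 7 counts in wild type and 2, 1 and 4 in knockout. Csf1r had 3, 2 and 2 against 4, 3 and 14, and Fcgr1 0, 0 and 2 against 2, 4 and 10. Adgre1 had 0, 0 and 0 against 0, 0 and 8, and Cd3e 1, 0 and 0 against 0, 0 and 1. The 4 endothelial markers had 3 to 4 counts in a wild-type library, 17 and 25 in knockout replicates 1 and 2, and 103 in replicate 3. Of 6 fibroblast markers all had a count, with sums of 67.3 to 70.0 CPM (wild type) and 167 to 180 CPM (knockout), nearly all from Pdgfra. Col1a1 went the other way, with 65, 60 and 71 counts in wild type and 15, 14 and 37 in knockout. Lum had 1 count each in 2 knockout libraries and none elsewhere. Col1a2 had 2, 1 and 3 counts in wild type and 6, 1 and 33 in knockout. Pdgfrb had 0, 0 and 0 against 1, 0 and 10, and Dcn 1, 2 and 5 against 4, 1 and 16. Col1a2, Pdgfrb and Dcn were thus each highest in knockout replicate 3. The part of other cells in the results that follow was not tested.

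Of the 10 genes, 8 passed the filter on low counts and were tested, and all 8 were higher in knockout. The other 2, the ASC gene Pycard and the kinase gene Ripk3, were barely detected in either group. Genes were compared by the quasi-likelihood F test of edgeR over 13022 genes, 2-sided, with Benjamini-Hochberg adjustment and a threshold of 0.05; "rose" and "fell" are used for genes past it. The difference between the groups was wide: 82.3% of tested genes were called, 41.3% higher and 40.9% lower in knockout, so a call by itself says little about any gene. CPM of the groups did not overlap in 41.7% of tested genes, higher in knockout, and in 41.4%, lower in knockout. Lack of overlap by itself therefore also says little about any gene named below. The 10 genes were chosen with earlier results of these data known, so nothing is read from how many of them were called. A rise of at least 2-fold was called in 12.4% of tested genes and in 5 of the 8 tested here. Of these 5, Casp1, Casp4 and Zbp1 passed the filter only through the knockout libraries, where they are high, so their being called was bound to follow. In bulk RNA, fewer cells of a type and less RNA per cell cannot be told apart.

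**Figure D1:**
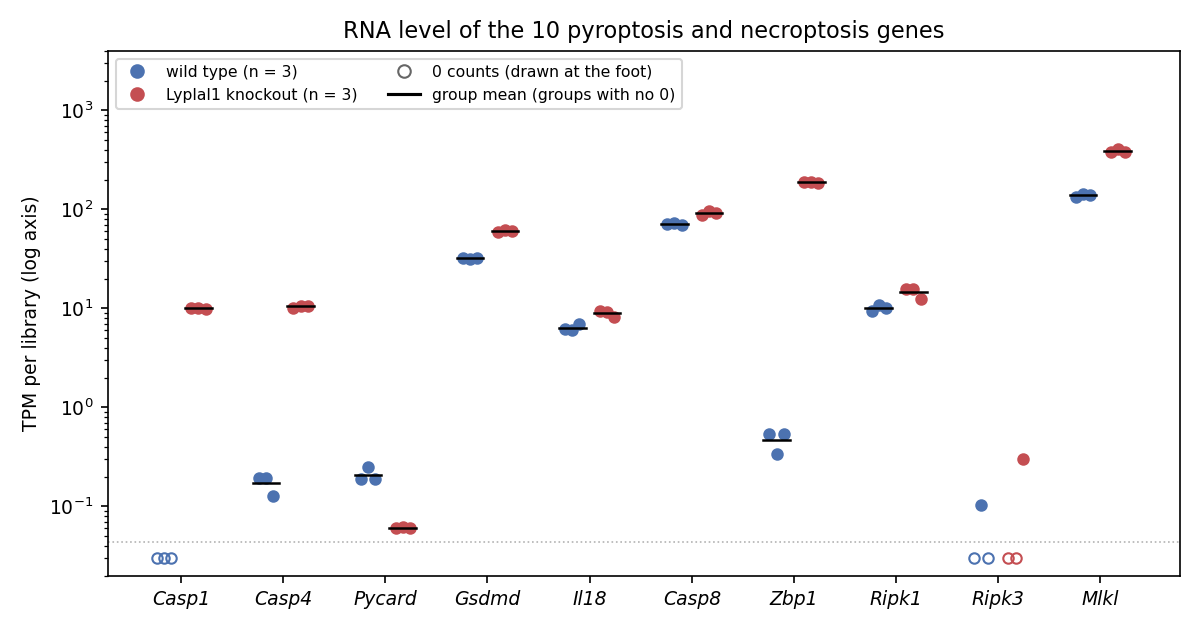
Deposited TPM (a length-scaled level, log axis) of each gene in each of the 6 libraries, with blue points for wild type, red for Lyplal1 knockout, open points for libraries with 0 counts and bars for group means. Casp1, Casp4 and Zbp1 sit below 1 TPM in wild type and at 9.94 TPM or more in knockout, while Pycard and Ripk3 stay below 1 TPM in all 6 libraries.

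The inflammatory caspases went from near silence to a clear signal. No wild-type library held a Casp1 count, whereas knockout replicates 1 to 3 held 137, 135 and 137. The knockout libraries were close to each other and the groups did not overlap. Its level was 8.54 ± 0.0993 CPM (SD, n = 3) in knockout, and a wild-type total of 0 allows up to 0.056 CPM, counting 3 reads over the group. Casp1 was therefore at least 152-fold higher in knockout (edgeR adjusted p = 1.80e-17). Casp4, the caspase-11 gene, had 3, 3 and 2 counts in wild type and 162, 171 and 174 in knockout. It rose 67.6-fold, from 0.149 ± 0.032 to 10.6 ± 0.419 CPM (SD, n = 3 each), with a log2 fold change of 6.08 ± 0.224 (SE, edgeR adjusted p = 4.04e-19). The wild-type libraries were uniformly low and no library lay between the groups.

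Casp1 (ENSMUSG00000025888) and Casp4 (ENSMUSG00000033538) are neighbours on the plus strand of chromosome 9 in GRCm38. Casp1 spans 5298517 to 5307265 and Casp4 5308828 to 5336783, with 1563 bases between the end of one and the start of the other. Neither shares exon positions with another annotated gene. Their promoter windows, 250 bases before to 50 after the start in RefSeq (GRCm38.p6), are shown because these adjacent genes moved together. They are chr9:5298267-5298566 for Casp1 and chr9:5308599-5308898 for Casp4, both on the plus strand, and capitals mark matches to the kappa B motif, the binding consensus of NF-kB.
Casp1: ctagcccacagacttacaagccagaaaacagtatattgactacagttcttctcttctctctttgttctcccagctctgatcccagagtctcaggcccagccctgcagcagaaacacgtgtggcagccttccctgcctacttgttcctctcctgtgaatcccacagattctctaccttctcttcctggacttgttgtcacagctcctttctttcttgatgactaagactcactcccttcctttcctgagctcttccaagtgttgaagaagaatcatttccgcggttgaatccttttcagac
Casp4: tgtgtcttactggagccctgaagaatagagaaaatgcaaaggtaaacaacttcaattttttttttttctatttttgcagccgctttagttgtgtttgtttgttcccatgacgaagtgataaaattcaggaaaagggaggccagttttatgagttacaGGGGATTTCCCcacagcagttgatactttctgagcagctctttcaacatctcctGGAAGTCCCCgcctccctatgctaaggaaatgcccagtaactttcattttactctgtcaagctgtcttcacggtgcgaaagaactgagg
The Casp4 window shown held 3 matches, starting 93, 92 and 39 bases before the start, of which the first 2 overlap. The other Casp4 window, slightly downstream, held the same matches. The Casp1 window held none. Both strands were searched in 32851 mouse windows of 300 bases, of which 8.46% held the kappa B motif. The interferon-stimulated response element core, GAAANNGAAA, was in 3.44% of all windows and the interferon-gamma-activated site core, TTCNNNGAA, in 8.3%, and neither was in these windows. A match describes letters in a window and is not a measured binding site.

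RNA for the adaptor was scarce in both groups. Pycard had 3, 4 and 3 counts in the wild-type libraries and 1 in each knockout library. The groups did not overlap in CPM, but with 10 counts against 3 the knockout to wild-type ratio was 0.335, with an exact 95% counting interval of 0.0593 to 1.3 that includes no difference. With no filter on low counts its log2 fold change was -1.45 ± 0.97 (SE) and it was not called (edgeR adjusted p = 0.244). Pycard shares 485 exon positions with Gm45205 on the opposite strand, and the sources used here do not say how strand entered the counting.

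The substrates of these caspases were present in both groups and rose less. Gsdmd (ENSMUSG00000022575, chromosome 15, 75862327 to 75867408), the pore-forming substrate, had 325, 317 and 321 counts in wild type and 605, 631 and 627 in knockout. It rose 2.16-fold, from 18.0 ± 0.191 to 38.9 ± 0.928 CPM (SD, n = 3 each; log2 fold change 1.11 ± 0.0616, edgeR adjusted p = 3.23e-15). Every knockout library was above every wild-type library by far more than the spread within groups. Il18 (chromosome 9, 50554827 to 50581840), the cytokine precursor, had 27, 26 and 30 counts in wild type and 42, 41 and 37 in knockout. The groups did not overlap, but these were the lowest counts among the genes tested through both groups. Il18 rose 1.61-fold, from 1.55 ± 0.121 to 2.5 ± 0.156 CPM (log2 fold change 0.69 ± 0.201, edgeR adjusted p = 0.00283). DESeq2 gave a similar log2 fold change of 0.70 but did not call it (adjusted p = 0.0691).

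Among the necroptosis genes the sensor changed most. Zbp1 (ENSMUSG00000027514, chromosome 2, 173206612 to 173218923, minus strand) had 8, 5 and 8 counts in wild type and 2837, 2866 and 2863 in knockout. It rose 448-fold, from 0.392 ± 0.0969 to 179 ± 1.42 CPM (SD, n = 3 each; log2 fold change 8.81 ± 0.0926, edgeR adjusted p = 4.77e-31). Of the 13022 tested genes 41 had a larger fitted log2 fold change. Nothing is read from this rank, because Zbp1 passed the filter only through the knockout libraries. Mlkl (ENSMUSG00000012519, chromosome 8, 111311797 to 111338177, minus strand), which encodes the membrane-breaking effector, was already abundant in wild type at 1276, 1373 and 1364 counts. It reached 3803, 4072 and 3879 counts in knockout, a 3.27-fold rise from 74.9 ± 3.25 to 245 ± 8.31 CPM (log2 fold change 1.71 ± 0.0405, edgeR adjusted p = 2.18e-23). For both genes the lowest knockout library stood well above the highest wild-type one.

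Of the kinase genes, Ripk3 was barely detected and Ripk1 rose, by less than Zbp1 or Mlkl. Ripk3 (ENSMUSG00000022221, chromosome 14, 55784995 to 55788865, minus strand), the kinase that phosphorylates MLKL, had 0, 1 and 0 counts in wild type and 0, 0 and 3 in knockout. Its RNA was at or below the floor of 3 counts per group among 51164663 wild-type and 50286502 knockout counts, so no fold is given; 3 counts correspond to 0.0626 CPM in knockout, and a difference below that was not detectable at this depth. The 3 knockout counts were all in replicate 3, the library with the highest leukocyte and endothelial marker counts; the part of those cells in them was not tested. Ripk1 had 326, 379 and 354 counts in wild type and 565, 566 and 459 in knockout. Knockout replicate 3 was the lowest of its group and still above wild type. Ripk1 rose 1.68-fold, from 19.8 ± 1.53 to 33.2 ± 3.72 CPM (log2 fold change 0.75 ± 0.0783, edgeR adjusted p = 4.81e-09). Serpinb6a, on the opposite strand, and Gm17084 share 752 of its 8344 exon positions.

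RefSeq gives Ripk1 more than 1 start on the plus strand of chromosome 13. The downstream window, chr13:34002624-34002923 (GRCm38.p6), is shown because it was the only member window with matches to the interferon motifs, which are in capitals.
Ripk1: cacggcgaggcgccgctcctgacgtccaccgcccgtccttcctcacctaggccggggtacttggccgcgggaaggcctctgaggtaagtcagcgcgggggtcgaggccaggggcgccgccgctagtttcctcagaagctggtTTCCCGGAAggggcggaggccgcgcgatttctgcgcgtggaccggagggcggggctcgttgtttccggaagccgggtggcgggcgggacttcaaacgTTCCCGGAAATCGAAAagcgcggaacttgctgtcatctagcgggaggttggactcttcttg
A GAS core began 108 bases before the start, and another, 11 bases before it, overlapped an ISRE core that began 5 bases before it. The upstream Ripk1 window held no match to any of the 3 motifs. Of the 10 genes, 8 had an entry, with 10 windows between them; Gsdmd and Zbp1 had none. The windows of Casp1, Casp8, Il18, Mlkl, Pycard and Ripk3 held no match, which says only that these letters were not in those 300 bases.

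Casp8, the protease that restrains the RIP kinases and also starts death receptor apoptosis, rose least. It had 868, 884 and 843 counts in wild type and 1096, 1196 and 1171 in knockout. The groups did not overlap. The rise was 1.49-fold, from 48.5 ± 1.08 to 72.3 ± 3.31 CPM (SD, n = 3 each; log2 fold change 0.58 ± 0.0483, edgeR adjusted p = 2.15e-11). On the deposited TPM its log2 fold change was 0.36, still called (limma-trend adjusted p = 2.58e-05), while the median of all tested genes moved by -0.19 on that scale.

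**Figure D2:**
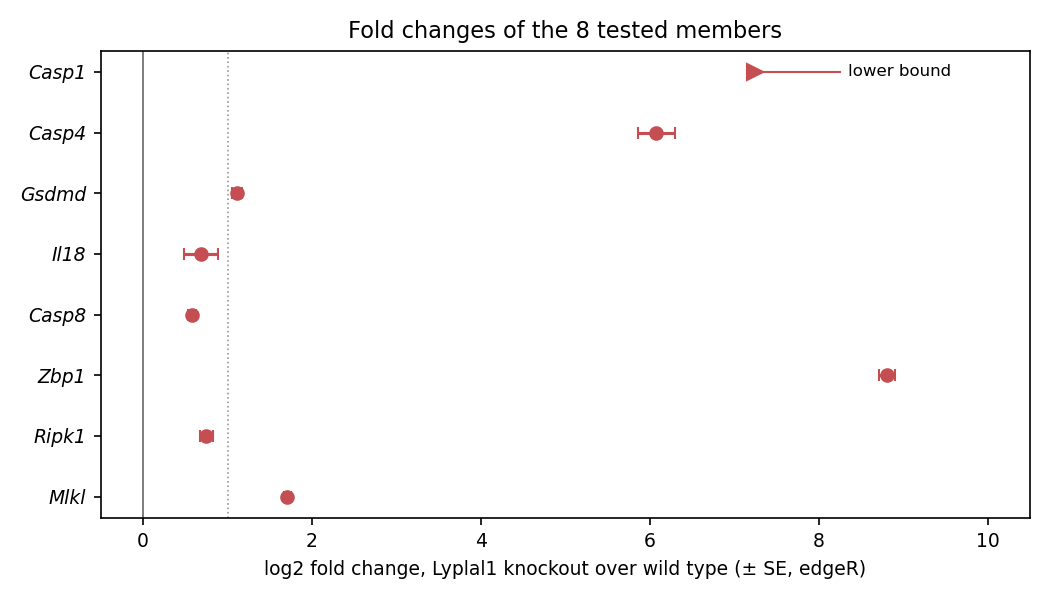
Fitted log2 fold changes of the 8 tested genes, knockout over wild type, with standard errors; the dotted line marks 2-fold. Zbp1 at 8.81 and Casp4 at 6.08 lie far from the others, Casp1 is drawn as a lower bound with an arrow because wild type had no count, and Casp8, Il18 and Ripk1 lie between 0 and 1.

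Without knockout replicate 3, the log2 fold changes were 6.06 for Casp4, 8.81 for Zbp1, 1.72 for Mlkl, 1.11 for Gsdmd, 0.84 for Ripk1, 0.75 for Il18 and 0.57 for Casp8. The other knockout libraries also had more Lyz2 and endothelial marker counts than wild type, and the part of such cells in these values was not tested. In replicate 3 itself Casp1, Casp4 and Zbp1 had 137, 174 and 2863 counts, next to 135 to 171 for the caspases and 2837 to 2866 for Zbp1 in the other knockout libraries.

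Levels were compared between genes as TPM, which divide by gene length. In wild type the order ran Mlkl at 139 ± 5.71 TPM, Casp8 at 71.4 ± 1.92, Gsdmd at 32.2 ± 0.34, Ripk1 at 10.1 ± 0.781 and Il18 at 6.4 ± 0.464 TPM (SD, n = 3). No 2 neighbours among these 5 overlapped between libraries. Zbp1 followed at 0.473 ± 0.116 TPM, and Pycard and Casp4, at 0.188 to 0.252 and 0.128 to 0.194 TPM, overlapped each other. Ripk3 had a value in 1 library, at 0.104 TPM, and Casp1 was listed at 0.

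In knockout Mlkl was again highest at 393 ± 16.1 TPM, and Zbp1 moved to the next place at 187 ± 2.21 TPM. Casp8 and Gsdmd came after at 92.2 ± 4.05 and 60.3 ± 1.32 TPM. Ripk1 spanned 12.5 to 15.8 TPM and lay above Casp4 at 10.2 to 10.7 TPM. Casp4 and Casp1, at 9.94 to 10.2 TPM, met in replicate 1, and the Casp1 to Casp4 ratio within a knockout library was 0.955 ± 0.0391. Il18 came next at 8.17 to 9.48 TPM. Ripk3 and Pycard were last, at up to 0.298 and 0.0613 TPM.

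The 10 genes together summed to 253, 266 and 260 TPM in the wild-type libraries and 764, 805 and 762 TPM in the knockout libraries. Mlkl made up much the same share of that sum in both groups, 53.4 ± 0.985% in wild type and 50.6 ± 0.498% in knockout. Zbp1 went from 0.183 ± 0.048% to 24.1 ± 0.509% of the sum, and Casp8 from 27.5 ± 0.834% to 11.9 ± 0.292%. Zbp1 relative to Mlkl stood at 0.00409, 0.00238 and 0.00383 in wild type but at 0.487, 0.459 and 0.482 in knockout. Mlkl exceeded Ripk1 13.8 ± 0.557 times in wild type and 27.0 ± 3.22 times in knockout, with no overlap between groups. Casp8 exceeded Ripk1 7.09 ± 0.514 and 6.35 ± 0.909 times, ranges that overlapped.

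**Figure D3:**
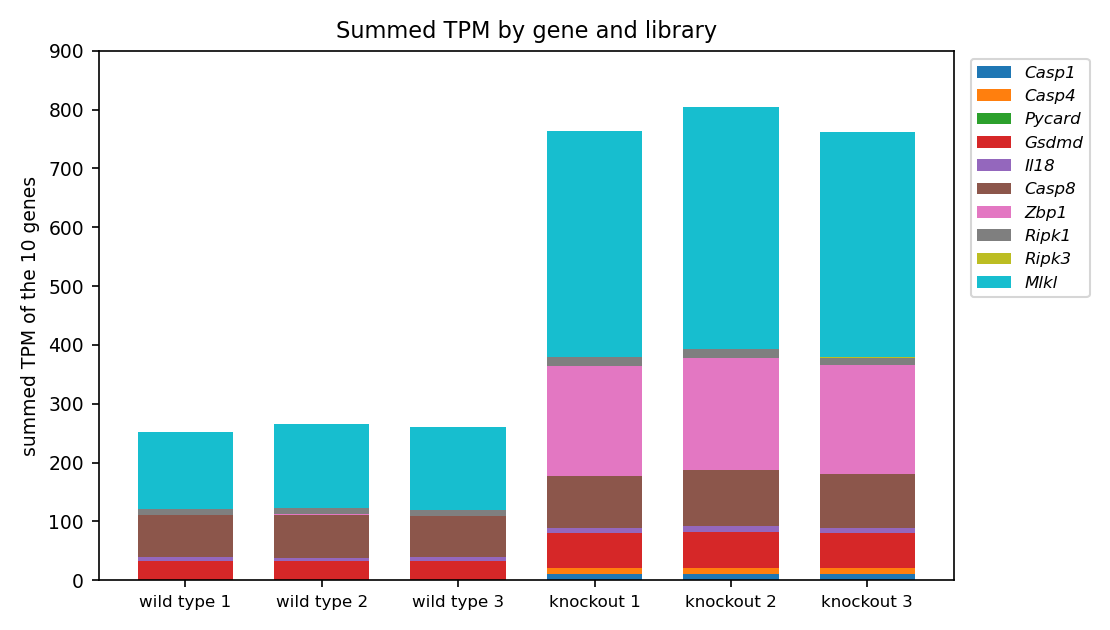
Deposited TPM of the 10 genes stacked for each library. The 3 wild-type bars reach 253 to 266 TPM and the 3 knockout bars 762 to 805 TPM, with Mlkl the largest block in all 6 and Zbp1 visible only in knockout; Pycard and Ripk3 are too low to be seen.

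Partners of the pyroptosis genes moved in both directions. Of 39 listed inflammasome, gasdermin and interleukin-1 family genes 23 passed the filter, and 12 rose and 11 fell, with a median log2 fold change of 0.09 beside 0.00 over all tested genes. Of the 23, 5 passed the filter only through knockout (among them Gbp3, Gbp5 and Irgb10) and 2 only through wild type, so nothing is read from the count of calls against 82.3% of all tested genes. The guanylate-binding proteins, which coat cytosolic bacteria and help to activate caspase-11, rose most. Gbp2 went from 1.19 ± 0.517 to 426 ± 21.2 CPM, 354-fold (SD, n = 3 each; edgeR adjusted p = 2.38e-22). Gbp3 rose 1260-fold, and Gbp5 had 3 wild-type counts in all, a ratio of 1390 (exact 95% interval 474 to 6720). Irgb10, an interferon-inducible GTPase that acts with them and is named Gm12250 in the annotation, rose 147-fold. Genes of the Gbp family are alike in sequence, which makes each single value uncertain where reads could be split among them.

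The classical inflammasome sensors were barely detected. Nlrp3 had 9, 4 and 4 counts in wild type and 6, 4 and 7 in knockout, and Nlrc4 had 3, 2 and 3 against 0, 0 and 1. Aim2, a sensor of cytosolic DNA, had no wild-type count and 0, 5 and 6 in knockout, overlapping at 0. None of these 3 passed the filter. Gsdme, another pore-forming gasdermin, fell from 13.9 ± 0.792 to 10.8 ± 0.772 CPM, a log2 fold change of -0.36 (edgeR adjusted p = 6.51e-04, and 0.076 in a test against a 1.2-fold change). Ninj1, which ruptures the membrane of dying cells, was 1.15-fold lower in knockout (edgeR adjusted p = 0.0067). DESeq2 and the fit without knockout replicate 2 did not call it (adjusted p = 0.0735 and 0.0628). Nor did the edgeR test against a 1.2-fold change (adjusted p = 0.714). Chmp4b, a subunit of the ESCRT-III machinery that repairs gasdermin pores, rose 2.39-fold to 233 ± 4.83 CPM.

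Cytokine genes of the interleukin-1 family followed. Il1a, an alarmin released by lytic death, had 39, 55 and 52 counts in wild type and 500, 512 and 427 in knockout, an 11.0-fold rise (log2 fold change 3.46 ± 0.112). Il1b, the other classical caspase-1 substrate, had 14, 14 and 13 against 2, 6 and 5 counts and fell, with a log2 fold change of -1.47 ± 0.415 (edgeR adjusted p = 0.00214, not called by DESeq2 at adjusted p = 0.0643). Il1b passed the filter only through the wild-type libraries, at a low level of 0.765 CPM, so nothing is read from its call. Il18bp, the soluble decoy of interleukin-18, rose 3.7-fold. The receptor gene Il1r1 fell from 23.1 ± 0.715 to 2.02 ± 0.136 CPM and was 11.4-fold higher in wild type. Il1r1 is the receptor that both Il1a and Il1b products bind.

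Among genes whose products act on the NLR sensors, Txnip, a thioredoxin-binding protein linked to NLRP3, and Dpp8, a peptidase that restrains NLRP1, both fell, and their wild-type levels exceeded knockout 2.56-fold and 1.48-fold.

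Of 44 listed TNF receptor and necrosome partners 42 passed the filter; 25 rose, 12 fell and 5 were not called, with a median log2 fold change of 0.24. Over all tested genes 41.3% were called higher and 40.9% lower, with a median of 0.00. Of the 42, 1 passed the filter only through knockout, Tnfsf10. The list was chosen with earlier results of these data known, so nothing is read from these counts. The inputs to the RIP kinases went both ways. Tlr3, the double-stranded RNA receptor of endosomes, rose 4.85-fold, from 29.0 ± 2.07 to 141 ± 3.79 CPM (edgeR adjusted p = 3.86e-24). Its adaptor gene Ticam1, whose product binds RIPK1 and RIPK3, fell from 581, 635 and 535 to 212, 239 and 233 counts and was 2.29-fold higher in wild type. Tlr4, the lipopolysaccharide receptor that shares this adaptor, was 2.81-fold higher in wild type. Tnfrsf1a, TNF receptor 1, was 1.18-fold higher in knockout, but was not called on the deposited TPM (limma-trend adjusted p = 0.327). It was also not called in the edgeR test against a 1.2-fold change (adjusted p = 0.51).

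Regulators of caspase-8 and RIPK1 also moved both ways. Fadd, the adaptor that brings caspase-8 to death receptors and RIPK1, was 2.29-fold higher in wild type, at 285, 314 and 371 counts against 121, 121 and 137. Cflar, the caspase-8 partner c-FLIP, was not called (log2 fold change 0.08 ± 0.0481, edgeR adjusted p = 0.126, and -0.05 with upper-quartile factors). Without knockout replicate 3 Cflar was called higher, at a log2 fold change of 0.11 (edgeR adjusted p = 0.0389). Birc3 was not called (edgeR adjusted p = 0.331) and its log2 fold change was also -0.05 with upper-quartile factors. Birc2, which like Birc3 ubiquitinates RIPK1, was 1.19-fold higher in knockout, a call lost with upper-quartile factors (edgeR adjusted p = 0.0521) and on TPM (limma-trend adjusted p = 0.526). The Birc2 call was also lost in the edgeR test against a 1.2-fold change (adjusted p = 0.453). The deubiquitinase genes Tnfaip3 and Cyld fell, with wild type 1.55-fold and 1.26-fold above knockout. Rnf31, the catalytic subunit of the linear ubiquitin ligase, rose 3.73-fold, and Optn, a linear ubiquitin reader, 3.2-fold. Ripk4, a related kinase, was 1.78-fold higher in wild type. Adar, which edits double-stranded RNA and limits ZBP1 activation, rose 2.92-fold, from 75.2 ± 1.46 to 220 ± 3.92 CPM, much less than Zbp1.

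**Figure D4:**
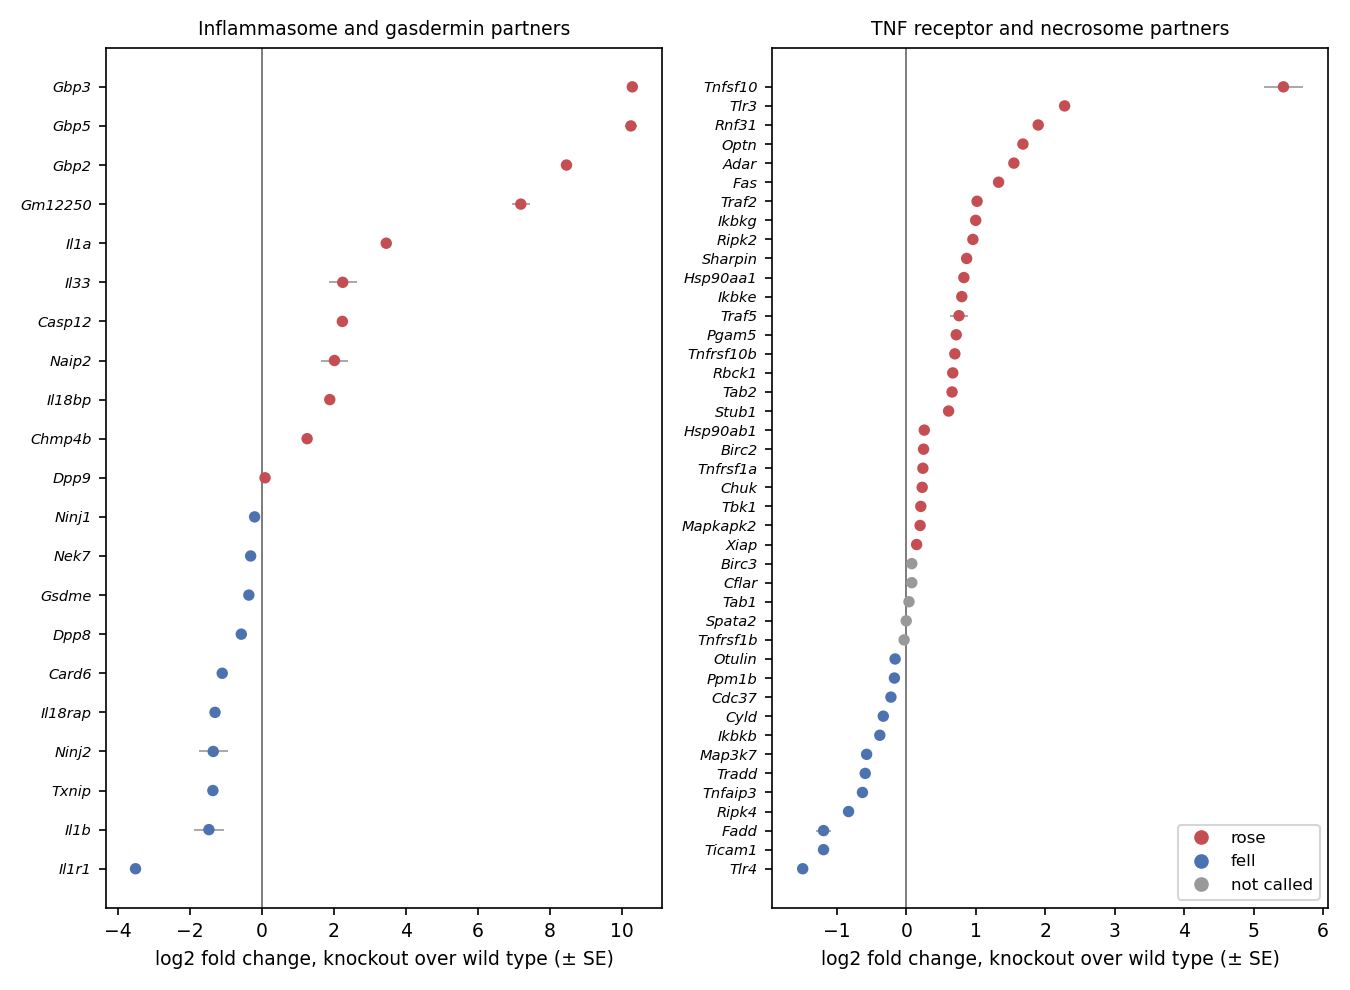
Fitted log2 fold changes (± SE, edgeR) of tested partner genes, 21 on the left and 42 on the right; red rose, blue fell and grey was not called in knockout. Gbp3, Gbp5 and Gbp2 lead the left panel, with Il1r1 lowest, and Tnfsf10 and Tlr3 lead the right panel, with Tlr4 lowest; the Gbp5 point rests on 3 wild-type counts and is no bound.

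Outside these lists, the genes nearest to Casp1 in level and change were sought as those with the smallest mean absolute difference in log2 CPM over the 6 libraries. They were Gbp10, Eda and Trim30c, at 0.0754, 0.106 and 0.123 log2 units. Like Casp1, these 3 lacked any wild-type count, and they had 110 to 133, 139 to 178 and 109 to 119 counts in the knockout libraries. They were picked by these same values, and with no wild-type count passed the filter only through knockout. Their likeness to Casp1 follows from the choice, so nothing is read from it.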

How the data were processed

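RNA of 6 libraries of 4T-1 cells was measured, 3 labelled wild type and 3 Lyplal1 knockout. Trizol extraction and a DNBseq library kit were used, per the labels' protocols. GRCm38, featureCounts 2.0.1 and STAR 2.7.8a are named in the submitters' processing notes, while settings, strand and annotation release were not given in the sources used. Raw counts per gene and TPM for 55487 genes were deposited by the authors; the 12 per-library files held the same values as the series tables. Symbols and positions come from GENCODE M21 (GRCm38), which held 55141 of the identifiers, and promoter sequences from RefSeq (GRCm38.p6).

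Counts were filtered (filterByExpr, 13022 genes kept), scaled by TMM factors and tested with edgeR's quasi-likelihood F test (robust). CPM use TMM-adjusted library sizes. Standard errors are the absolute log2 fold change over the square root of F. A group with 0 counts has a floor of 3 counts; 1 to 3 counts give a pooled ratio with an exact 95% interval, for counting error only. The test was also tried on simulated counts in which only a small part of the genes changed. Most genes were called in the data here, so nothing is read from that trial. Versions were edgeR 4.0.16, DESeq2 1.42.0 and limma 3.58.1 under R 4.3.3, with SciPy 1.17.1 under Python 3.11.15.

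The members and lists were chosen with earlier results of these data known. Named partners are the 4 called genes of smallest adjusted p in each direction of each list, plus 21 chosen for mechanism; Irgb10 was added after its values were seen, and a few listed genes are counted but not reported here. Alternatives left out each library in turn, added a replicate block, replaced TMM by RLE or upper-quartile factors, dropped the filter or required 1 CPM in 3 libraries, tested against a 1.2-fold change, or used DESeq2 or limma-trend (on log2 of TPM plus 1 or plus 0.1).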

Additional observations from a re-analysis of the deposited data

How the results depend on the processing

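Over 15 alternatives, 8 of the 10 genes were called in every one except DESeq2, which called 7 and left out Il18. Nothing is read from these counts: 82.3% of all tested genes were called in the main fit. Casp1, Casp4 and Zbp1 also passed its filter only through the knockout libraries. The log2 fold change of Mlkl ran from 1.5 to 1.74, of Gsdmd from 0.88 to 1.14, of Ripk1 from 0.49 to 0.84, of Casp8 from 0.36 to 0.62 and of Il18 from 0.43 to 0.75. For Zbp1 it ran from 7.0 to 8.91 and for Casp4 from 3.3 to 6.16. The lowest values were on log2(TPM + 1), where the added 1 exceeds the wild-type TPM of Zbp1 and Casp4 and shrinks their change. Casp1 gave 3.46 to 10.2, but with no wild-type count these values are set by the added constant or the fit. They are no estimate of its change, for which only the bound of 152-fold is given. Over all genes, 10711 of 13022 were called, 8369 of 13022 in the test against a 1.2-fold change and 12030 of 27543 without the filter. Called partner genes numbered 18 to 25 of the 39 inflammasome and gasdermin partners. They numbered 27 to 37 of the 44 TNF receptor and necrosome partners. The number of genes tested changed with the filter, so nothing is read from these counts either. Upper-quartile factors moved the median log2 fold change of all tested genes by -0.13, and log2(TPM + 1) and log2(TPM + 0.1) by -0.19 and -0.21. Of called genes 50.2% were higher in knockout, 42.8% with upper-quartile factors and 38.5% on TPM. Lyplal1 (log2 fold change -0.28) was called lower with upper-quartile factors (-0.41) and on TPM (-0.44 and -0.48). Cflar and Birc3 changed sign with upper-quartile factors (both -0.05), on log2(TPM + 1) (both -0.12) and on log2(TPM + 0.1) (both -0.13); the cause was not tested. Labels share replicate numbers, but deviations of same-numbered libraries correlated at -0.007, 0.042 and 0.013, and not every library correlated best with its own number. With the replicate block 10798 genes and the same number of the 10, 8, were called. Pycard, with 10 and 3 counts, and Ripk3, with 1 and 3, are limited by depth.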

Other observations

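Levels of caspase-8 relative to its partners differed between the groups; these pairs were chosen after the values were seen and are given with no test. The Casp8 to Fadd TPM ratio was 3.66 ± 0.536 in wild type and 12.4 ± 0.91 in knockout (SD, n = 3 each), and the Casp8 to Cflar ratio 3.98 ± 0.0667 and 5.63 ± 0.415. Casp12, a caspase gene of the same family as Casp1 and Casp4, had 42, 55 and 30 counts in wild type and 184, 192 and 162 in knockout. Tnfsf10, the gene of the death ligand TRAIL, had 2, 2 and 3 counts in wild type and 101, 98 and 86 in knockout, while Fasl had none in any library. Tnf, the ligand of TNF receptor 1, had 0, 2 and 0 counts in wild type and 3, 0 and 6 in knockout. Il18rap, a subunit of the interleukin-18 receptor, was 2.46-fold higher in wild type, and its partner Il18r1 had 0, 1 and 3 counts there and 2, 2 and 7 in knockout. These genes were also named after their values were seen.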
